A study of Mus musculus with 6 samples.

Results

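The 9 genes followed here mark macrophages and were measured in 2 populations of mouse dendritic cells: the complement genes C1qa, C1qb and C1qc, the lipid carrier Apoe, the transcription factor Maf, the receptors Mertk, Adgre1 and Trem2, and the membrane glycoprotein Gpnmb. Members were all probe sets whose platform annotation carried exactly 1 symbol from this list, which gave 18 probe sets for 9 of the 18193 genes named on the array. Bone marrow cells of C57BL/6 mice had been grown with GM-CSF at 10 ng/ml, and on day 6 cells positive for CD11c and MHC class II were sorted into Ly6G+ dendritic cells (Ly6G+ DC) and Ly6G- dendritic cells (Ly6G- DC). Ly6G is a surface protein typical of neutrophils. Each population was measured on 3 Affymetrix Mouse Genome arrays numbered 1 to 3, 1 array per sample. Strain, growth factor and culture time were shared by all samples, and the labels give neither the number of animals nor which arrays share a culture. P-values therefore rest on array-to-array spread alone, and that spread may be technical.

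Macrophages and dendritic cells both grow from bone marrow under GM-CSF, and sorted CD11c+ MHC class II+ cells from such cultures are known to include macrophage-like cells. C1q, made of A, B and C chains, starts the classical complement pathway and binds dying cells. Mertk is a receptor tyrosine kinase through which macrophages engulf dying cells, Trem2 is a lipid-sensing receptor that signals through the adaptor Tyrobp, and Apoe carries the lipid that such cells export. Adgre1 encodes F4/80, a classical mouse macrophage surface marker, and Maf encodes c-Maf, a factor of macrophage differentiation.

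The arrays differed in ways that did not follow the sorted groups exactly, and the cause was not tested. Spiked-in hybridization controls had geometric mean signals of 2016 to 2605 on Ly6G+ arrays 1 and 3 and Ly6G- array 1, and of 8755 to 16320 on Ly6G+ array 2 and Ly6G- arrays 2 and 3. The Actb 3′ over 5′ signal ratio, a measure of RNA integrity and labelling, was 1.17 to 1.49 on the first set and 3.98 to 6.85 on the second. The array name in the titles was Mouse430_2_2 for number 1 of each group and Mouse430_2 for the other 4. The sort genes Itgax and H2-Ab1 were bright in both groups, with lowest signals of 2728 and 10093. All 5 sort genes read were lower on average in Ly6G+ DC, and 0 were called by the test given below. Their median log2 fold change (Ly6G+ over Ly6G-) was -0.57, beside -0.06 over all probe sets. The groups did not overlap for 2 of them, H2-Ab1 included, against 7.24% of all probe sets with Ly6G+ DC lower. Ly6g was not analysed here.

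C1qb, C1qc and C1qa are direct neighbours in the mouse genome in that order (RefSeq, GRCm38.p6). Of the 9 members, 6 have an entry in the RefSeq promoter table used (250 bases before to 50 after a start), with 8 windows between them. The windows of C1qb and C1qc are shown because these genes encode chains of one complex. Capitals mark 2 motifs, searched on both strands: TGCTGA, the core of the site that Maf proteins bind, and AGGAAGT, the core bound by the myeloid factor PU.1. C1qb lies at chr4:136886151-136886450 and C1qc at chr4:136892865-136893164, both on the minus strand, and each sequence reads 5′ to 3′ along its gene.
C1qb: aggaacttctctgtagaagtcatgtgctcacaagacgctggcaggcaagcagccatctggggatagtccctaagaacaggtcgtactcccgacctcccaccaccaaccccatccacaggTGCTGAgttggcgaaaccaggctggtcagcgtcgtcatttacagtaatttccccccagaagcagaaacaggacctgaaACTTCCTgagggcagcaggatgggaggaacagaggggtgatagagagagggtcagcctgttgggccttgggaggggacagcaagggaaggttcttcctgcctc
C1qc: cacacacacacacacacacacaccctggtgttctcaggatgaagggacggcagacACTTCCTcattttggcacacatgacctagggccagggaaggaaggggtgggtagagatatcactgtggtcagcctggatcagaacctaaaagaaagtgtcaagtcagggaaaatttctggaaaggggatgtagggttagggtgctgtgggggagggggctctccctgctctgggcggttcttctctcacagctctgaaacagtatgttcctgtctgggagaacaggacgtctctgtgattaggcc

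In C1qb the Maf core spans bases 120 to 125 of the window and the PU.1 core, on the opposite strand, bases 198 to 204. In C1qc the PU.1 core spans bases 56 to 62, also on the opposite strand. The 2 motifs do not overlap in either window. Neither was present in the windows of Apoe, Mertk, Trem2 or Gpnmb. Of 32851 windows of 300 bases, 19.5% hold the Maf core and 9.35% the PU.1 core. A match describes letters in a window and is not a binding site.

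All 9 genes were measured in both populations, and none was called different between Ly6G+ and Ly6G- DC by the test across all probe sets. At least 1 probe set of C1qa, C1qb, C1qc, Apoe, Mertk, Adgre1, Trem2 and Gpnmb lay above the 40th percentile of all signals on all 6 arrays, and the best probe set of Maf did so on 5. A probe set was tested when it passed that percentile on at least 3 arrays, which left 14 of the 18. Apoe, Maf, Trem2 and a dim probe set of Gpnmb had the largest positive log2 fold changes, on the log2(signal + 16) scale as Ly6G+ over Ly6G-, while C1qc had the largest negative one. Limma called 0 of the 14 at an adjusted p under 0.05 and 0 of all 28254 probe sets (0%), and the smallest adjusted p of a member was 0.836.

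At an unadjusted p under 0.05, 1 member was higher in Ly6G+ DC, against 2.75% of all probe sets, and 0 were lower, against 2.87%. Groups overlapped for all 14 members. They did not overlap for 4.49% of all probe sets with Ly6G+ DC higher and for 7.24% with Ly6G+ DC lower. Log2 fold changes were positive for 10 of 14 members and for 45% of all probe sets. Their median was 0.25, from -0.53 to 1.27, beside -0.06 over all probe sets, and 0.19 over 13 with a dim probe set at its bound. Without Ly6G- DC 3 the median was -0.04 and 6 of 14 were positive, against 46.1% of all. Without Ly6G- DC 1 it was 0.58 and 11 were positive, against 44.3%. With the arrays blocked by hybridization controls the median was 0.10. After scaling of the arrays to one median, the median of all probe sets moved to 0.23 and that of the members to 0.55. In sorted cells measured in bulk, a different share of macrophage-like cells and a different amount of RNA per cell cannot be told apart.

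**Figure D1:**
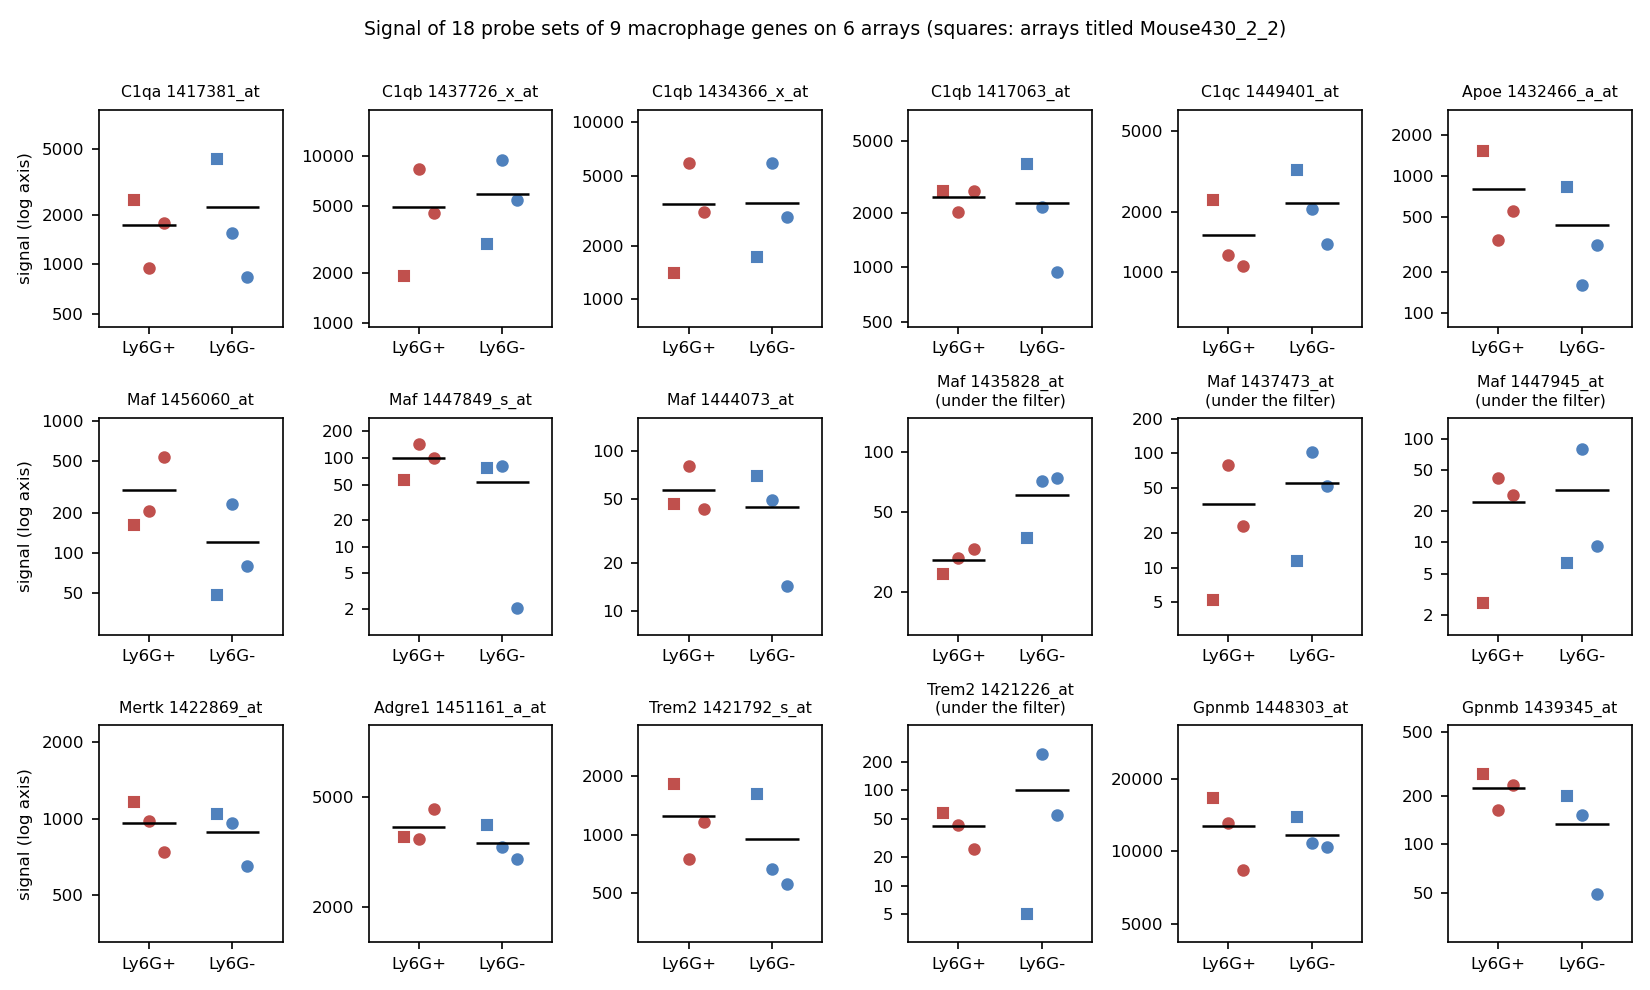
Signal (log axis) of each of the 18 probe sets on the 3 Ly6G+ (red) and 3 Ly6G- (blue) arrays, with squares for the arrays titled Mouse430_2_2 and bars for the group mean; in each group the points stand in numbered order. The groups overlap in every panel but the dim Maf probe set 1435828_at, and in most C1q, Apoe and Trem2 panels the squares lie at one end of their group.

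The 3 C1q genes were present in both populations, and their probe sets took no single direction. C1qa, the A chain, gave signals of 2467, 943 and 1776 on the Ly6G+ arrays against 4324, 1545 and 836 on the Ly6G- arrays, each listed by number from 1 to 3. The highest and the lowest array were both Ly6G-, so the Ly6G+ values lay within the Ly6G- range. Its log2 fold change was -0.15 ± 0.56 (SE), with a 95% interval of -1.40 to 1.11. C1qc, the C chain, gave 2288, 1218 and 1075 on the Ly6G+ arrays against 3206, 2060 and 1390 on the Ly6G- arrays. The array titled Mouse430_2_2 was highest in each group, and the groups overlapped through Ly6G+ DC 1. C1qc averaged 1527 ± 663 and 2219 ± 918 (SD, n = 3), a log2 fold change of -0.53 ± 0.40 (SE) with an adjusted p of 0.852. The difference was -0.48 between the arrays titled Mouse430_2_2 and -0.56 among the other 4.

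C1qb, the B chain, was read by 3 probe sets, and 1417063_at did not follow the others. Probe set 1417063_at gave 2667, 2033 and 2662 on the Ly6G+ arrays against 3736, 2158 and 940 on the Ly6G- arrays. As for C1qa, both extremes were Ly6G- arrays. Probe set 1437726_x_at gave 1913, 8311 and 4577 on the Ly6G+ arrays against 2983, 9431 and 5468 on the Ly6G- arrays, and 1434366_x_at gave 1399, 5896 and 3110 on the Ly6G+ arrays against 1736, 5879 and 2932 on the Ly6G- arrays. On both of these the array titled Mouse430_2_2 was lowest in each group. Affymetrix uses the ending _x_at where some probes also match other sequences. The log2 fold changes were 0.31 ± 0.45, -0.36 ± 0.56 and -0.07 ± 0.56 (SE) in this order.

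**Figure D2:**
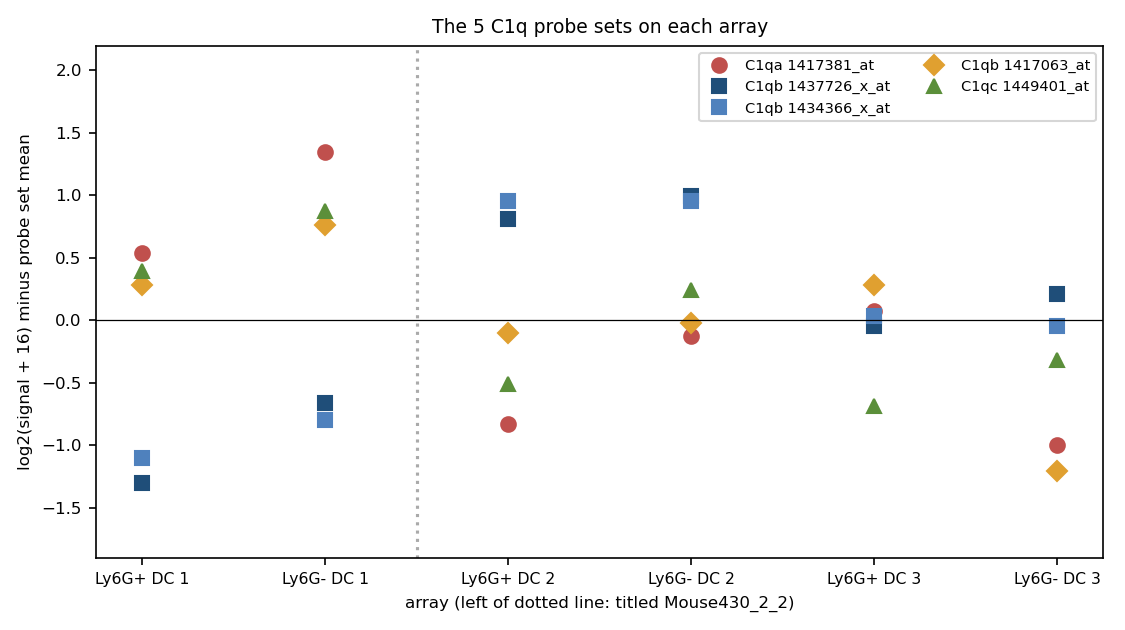
Log2(signal + 16) of the 5 C1q probe sets on each array, minus each probe set's mean over the 6 arrays, with arrays titled Mouse430_2_2 left of the dotted line. C1qa, C1qc and C1qb 1417063_at lie above their means on both arrays at the left, where both _x_at probe sets of C1qb lie below theirs.

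Over the 6 arrays, C1qb 1417063_at had a Pearson's r of 0.86 with C1qa and 0.51 with C1qc, and C1qa one of 0.78 with C1qc. The _x_at probe sets had 0.98 with each other, and 1437726_x_at had -0.43 with the third C1qb probe set and -0.68 with C1qa. These are descriptions over 6 arrays that share processing and the array differences given above. The arrays with the highest _x_at signal in each group were among those with the high hybridization controls and Actb ratios, and the part of these in the C1qb signals was not tested. With the hybridization control sets as a block, the log2 fold changes of the _x_at probe sets turned positive, at 0.10 ± 0.35 and 0.38 ± 0.36 (SE). Scaled to a common median, those of C1qa and 1434366_x_at became 0.18 and 0.26. Single arrays also turned the sign: that of C1qa without Ly6G+ DC 2 (0.23) or Ly6G- DC 1 (0.49), those of 1437726_x_at and 1434366_x_at without Ly6G+ DC 1 (0.20 and 0.46) or Ly6G- DC 2 (0.05 and 0.39), and that of 1417063_at without Ly6G- DC 3 (-0.22).

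Apoe and Trem2, which serve lipid transport and lipid sensing, were higher on average in Ly6G+ DC without passing the test. Apoe gave 1522, 340 and 552 on the Ly6G+ arrays against 836, 158 and 314 on the Ly6G- arrays. The array titled Mouse430_2_2 was highest in both groups, and Ly6G- DC 1 exceeded 2 of the Ly6G+ arrays. The log2 fold change was 0.89 ± 0.63 (SE), with a 95% interval of -0.51 to 2.29 and an adjusted p of 0.848. It was 0.30 when Ly6G+ array 1 was left out and 0.35 when Ly6G- array 2 was, but 1.35 when Ly6G+ array 2 was left out and 1.498 when Ly6G- array 1 was. The difference was 0.85 between the arrays titled Mouse430_2_2 and 0.91 among the other 4, and with that name as a block it was 0.89 ± 0.30 (SE), with an adjusted p of 0.373. With the hybridization control sets as a block it was 0.35 ± 0.42 (SE).

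Trem2 was read by a bright and a dim probe set. Probe set 1421792_s_at gave 1820, 747 and 1164 on the Ly6G+ arrays against 1610, 669 and 558 on the Ly6G- arrays. The arrays titled Mouse430_2_2 were again the highest of their groups. The log2 fold change was 0.46 ± 0.45 (SE), with an adjusted p of 0.872, and 0.07 ± 0.28 (SE) with the hybridization control sets as a block. It ranged from 0.14 without Ly6G+ DC 1 to 0.92 without Ly6G- DC 1. Probe set 1421226_at gave 57.7, 43.2 and 24.3 on the Ly6G+ arrays against 5.06, 240 and 55.4 on the Ly6G- arrays. It passed the 40th percentile on 2 arrays only and was not tested.

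Maf was dim, and its 6 probe sets disagreed. Probe set 1456060_at gave 163, 206 and 528 on the Ly6G+ arrays against 48.4, 233 and 79.1 on the Ly6G- arrays. Ly6G- DC 2 exceeded 2 of the Ly6G+ arrays, and Ly6G- DC 1 lay under its 40th percentile of 54.6. This was the member at an unadjusted p under 0.05, with a log2 fold change of 1.27 ± 0.57 (SE) and an adjusted p of 0.836. The value was 1.47 between the arrays titled Mouse430_2_2 and 1.18 among the other 4. When Ly6G+ array 2 or 3, or Ly6G- array 1 or 3, was left out, its unadjusted p was not under 0.05. The log2 fold change ranged from 0.79 without Ly6G+ DC 3 to 1.83 without Ly6G- DC 2.

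Maf probe set 1447849_s_at gave 56.1, 143 and 100 on the Ly6G+ arrays against 77.1, 80.3 and 2.03 on the Ly6G- arrays. The last array was under its percentile, and the Ly6G- mean lay under the mean 40th percentile of its arrays. The difference is therefore given as at least 1.24-fold higher in Ly6G+ DC. Probe set 1444073_at gave 43.4 to 80.7 on the Ly6G+ arrays against 14.3 to 69.6 on the Ly6G- arrays, too dim for a fold. The other 3 were under the filter. Probe set 1435828_at gave 24.6, 29.5 and 32.8 on the Ly6G+ arrays, all under the percentile, against 37.1, 71.6 and 73.8 on the Ly6G- arrays. Ly6G- DC 1, at 37.1, also lay under its percentile of 54.6. The groups of 1435828_at did not overlap, in the direction opposite to the tested Maf probe sets. With no filter, the same held for 8.39% of all probe sets with Ly6G+ DC lower. Probe set 1435828_at was at least 1.21-fold lower in Ly6G+ DC. Probe sets 1437473_at and 1447945_at gave 2.58 to 79.9 on the Ly6G+ arrays against 6.30 to 103 on the Ly6G- arrays.

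Adgre1, Mertk and the bright Gpnmb probe set varied least over the 6 arrays, and their intervals bound the group difference most closely. Adgre1 gave 3584, 3532 and 4520 on the Ly6G+ arrays against 3944, 3281 and 2979 on the Ly6G- arrays. The highest array was 1.52 times the lowest, and Ly6G- DC 1 exceeded 2 of the Ly6G+ arrays. Its log2 fold change was 0.19 ± 0.29 (SE), with a 95% interval of -0.47 to 0.85. Mertk gave 1162, 981 and 741 on the Ly6G+ arrays against 1040, 961 and 652 on the Ly6G- arrays, and the groups overlapped over most of their range. Its log2 fold change was 0.12 ± 0.31 (SE), with a 95% interval of -0.58 to 0.82.

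Gpnmb probe set 1448303_at gave 16683, 13127 and 8386 on the Ly6G+ arrays against 13905, 10845 and 10474 on the Ly6G- arrays. The Ly6G- range lay within the Ly6G+ range. The log2 fold change was 0.07 ± 0.38 (SE), with a 95% interval of -0.76 to 0.91. Gpnmb probe set 1439345_at gave 276, 165 and 234 on the Ly6G+ arrays against 201, 153 and 48.9 on the Ly6G- arrays, where Ly6G- DC 3 lay under its 40th percentile of 61.7. Its log2 fold change was 0.82 ± 0.47 (SE), with an adjusted p of 0.836. Without Ly6G- DC 1, the groups of Apoe, Adgre1, Trem2 1421792_s_at and Gpnmb 1439345_at did not overlap, all with Ly6G+ DC higher, and 0 members were called. In that setting of 3 arrays against 2, 14.1% of all probe sets did not overlap with Ly6G+ DC higher and 20.2% with Ly6G+ DC lower. Without Ly6G+ DC 1 there was no overlap for C1qc, lower (13.3% of all), and Maf 1447849_s_at, higher (8.49%), without Ly6G+ DC 2 for Gpnmb 1439345_at, higher (9.05%), and without Ly6G- DC 2 for Maf 1456060_at, higher (8.56%). The log2 fold changes of Mertk and Gpnmb 1448303_at turned to -0.02 and -0.15 without Ly6G+ DC 1, and to -0.08 and below 0 without Ly6G- DC 3. That of Gpnmb 1439345_at ranged from 0.30 without Ly6G- DC 3 to 1.17 without Ly6G- DC 1.

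Of the 14 members, 6 were called between the arrays of the 2 names in the titles. This comparison was chosen after the values were seen, and it sets the arrays numbered 1 against the others, so name and number cannot be told apart. In limma with group and name, Apoe, C1qa, Trem2 1421792_s_at and C1qc, 4 probe sets, were higher on the arrays titled Mouse430_2_2, against 2.82% of all probe sets, and the 2 _x_at probe sets of C1qb were lower, against 3.85%. Apoe averaged 1179 on the arrays titled Mouse430_2_2 and 341 on the others, a log2 fold change of 1.80 ± 0.32 (SE) with an adjusted p of 0.00686. C1qa had 1.42 ± 0.34, Trem2 1.16 ± 0.26 and C1qc 0.95 ± 0.24 (SE), with adjusted p-values of 0.0287, 0.0217 and 0.0371. C1qb had -1.47 ± 0.31 on 1437726_x_at and -1.43 ± 0.33 on 1434366_x_at (SE), with adjusted p-values of 0.0165 and 0.0238.

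C1qb 1417063_at (log2 fold change of 0.79 ± 0.35), Mertk (0.41 ± 0.26) and Gpnmb 1448303_at (0.53 ± 0.29, SE) were higher on average on the arrays titled Mouse430_2_2 but did not pass. Adgre1 had 0.09 ± 0.25 (SE). These 6 calls stood beside 6.67% called of all probe sets, and both counts moved with the setting. With the hybridization control sets as a further block 0 members and 1.04% of all were called, with a common median 2 and 3.23%, and with quantile normalization 7 and 6.46%, the added one being Gpnmb 1448303_at. Leaving out array 1, 2 or 3 of the Ly6G- group gave 0 and 0.184%, 2 and 3.55%, and 3 and 4.85%. Leaving out array 1, 2 or 3 of the Ly6G+ group gave 1 and 2.75%, 1 and 2.96%, and 6 and 13.8%. All 6 kept their direction in these settings. Both arrays of that name are among those with low hybridization controls. What separates the arrays by name is not given in the sources used here.

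**Figure D3:**
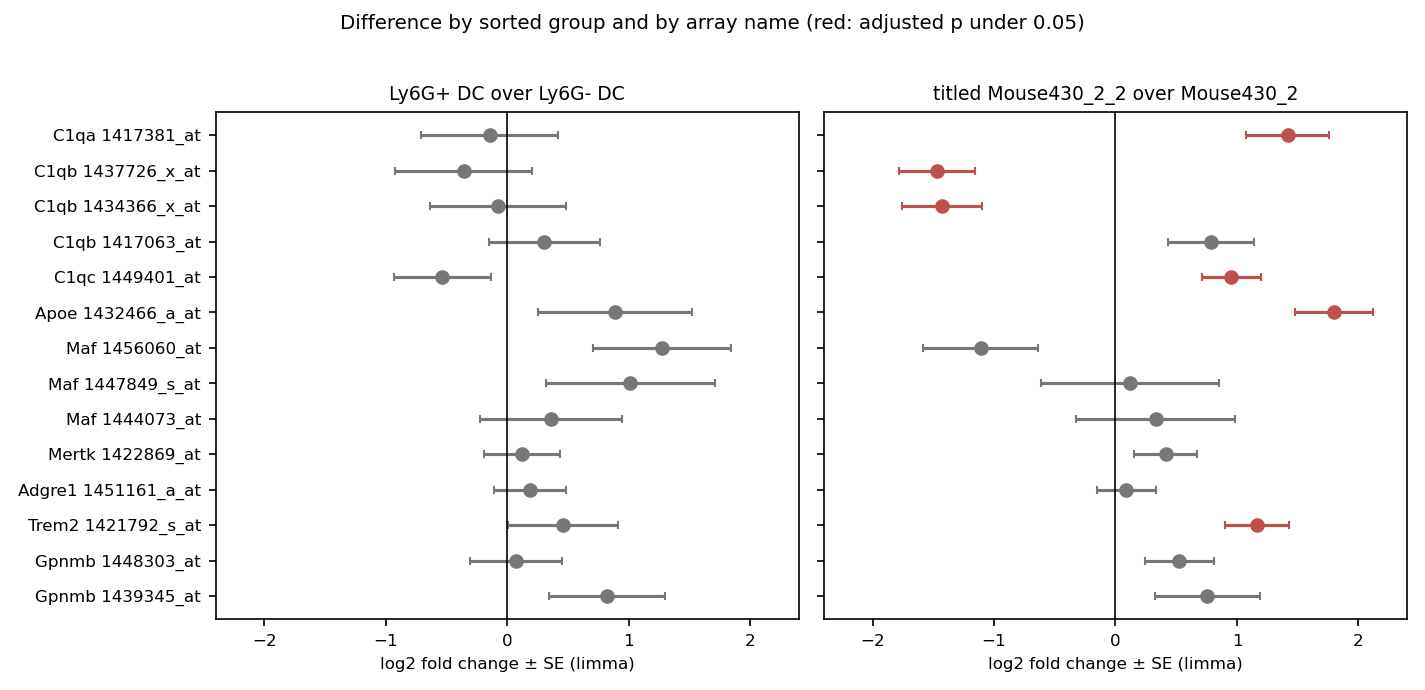
Log2 fold change ± SE from limma for the 14 tested probe sets, by sorted group (left) and by array name in the fit of both (right), with an adjusted p under 0.05 in red; Maf 1444073_at and 1447849_s_at are dim, and their points by group are fitted values. No probe set is red by group, and 6 are red by array name, 4 higher and 2 lower on the arrays titled Mouse430_2_2.

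Other genes of these pathways were read from lists, 1 tested probe set per gene, the brightest. No gene on them passed the adjusted threshold, and their counts at an unadjusted p under 0.05 stand beside 2.75% of all probe sets higher in Ly6G+ DC and 2.87% lower. Of 14 other complement components and receptors, 3 were higher in Ly6G+ DC at an unadjusted p under 0.05 and 0 lower, with a median log2 fold change of 0.42. They were Itgam, a chain of complement receptor type 3, with 1.54 ± 0.53, the phagocyte surface protein Cd93 with 0.93 ± 0.36, and the complement regulator Cr1l with 0.65 ± 0.28 (SE). Of 17 genes for the uptake of dying cells, 2 were higher and 0 lower at that level, with a median of 0.20, or 0.15 without Itgb3, which passed the filter on Ly6G+ arrays alone: Thbs1, a bridging protein, with 1.86 ± 0.76 and the phosphatase Ptpn6 with 1.04 ± 0.41 (SE). Axl, a receptor of the same family as Mertk, gave 2258, 631 and 1118 on the Ly6G+ arrays against 2636, 632 and 396 on the Ly6G- arrays, with the array titled Mouse430_2_2 highest in each group.

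Of 28 genes of lipid handling and the Trem2 and Apoe pathway, 4 were higher and 0 lower at an unadjusted p under 0.05, with a median log2 fold change of 0.38. Apoc2, an apolipoprotein gene near Apoe, gave 1151, 536 and 1271 on the Ly6G+ arrays against 388, 470 and 214 on the Ly6G- arrays, so its groups did not overlap. Its log2 fold change was 1.40 ± 0.41 (SE) with an adjusted p of 0.836. The lysosomal protease Ctsl had 1.17 ± 0.36 and the adaptor Hcst 1.11 ± 0.34 (SE), also without overlap, and Cst7 had 1.71 ± 0.63 (SE) with overlap. Of the 28, 5 did not overlap with Ly6G+ DC higher and 0 with Ly6G+ DC lower, beside 4.49% and 7.24% of all probe sets. Tyrobp, through which Trem2 signals, had 0.41 ± 0.34 (SE). Of 17 Maf relatives and macrophage transcription factors, 12 were positive and 5 negative, with a median log2 fold change of 0.56. At an unadjusted p under 0.05, 1 was higher, Zeb2 with 1.18 ± 0.46 (SE). At that level 2 were lower, Irf8 with -1.01 ± 0.34 (SE) and the dim Nrl, with at least 1.31-fold.

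Of 23 other macrophage markers, 15 had positive values, with a median log2 fold change of 0.07, and 2 were higher and 1 lower at an unadjusted p under 0.05. The endotoxin receptor genes Cd14 and Tlr4 had 1.52 ± 0.58 and 1.08 ± 0.37, the transporter Slco2b1 -1.24 ± 0.53 and Csf1r, the receptor for the macrophage growth factor CSF-1, -0.08 ± 0.45 (SE). Markers of other cells were read beside these, with 0 adjusted calls. Of 16 neutrophil markers tested, Cxcr2, Cd177 and Lrg1 passed the filter on Ly6G+ arrays alone, which fixes their direction. The other 13 were all positive, 12 of them at an unadjusted p under 0.05, and the summed signals of the 16 were 88910 to 118100 on the Ly6G+ arrays against 11420 to 29440 on the Ly6G- arrays. Of 10 monocyte markers 9 were positive, with sums of 45070 to 53490 and 12630 to 33210, and 17 of 19 dendritic cell markers were negative, with sums of 62510 to 94340 and 91670 to 168800. Cxcr2, Cd177 and Lrg1 gave 2.70 to 42.8 on the Ly6G- arrays, under the 40th percentiles of 54.6 to 61.7 of these arrays. The 9 members, each by its brightest probe set, summed to 23320 to 31600 on the Ly6G+ arrays against 22750 to 31900 on the Ly6G- arrays. Gpnmb 1448303_at gave 8386 to 16683 of this and C1qb 1437726_x_at 1913 to 9431, where Maf 1456060_at gave 48.4 to 528. The sums thus follow the brightest genes and do not measure a share of macrophage-like cells. The part of the other cell types in the members' values was not tested.

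**Figure D4:**
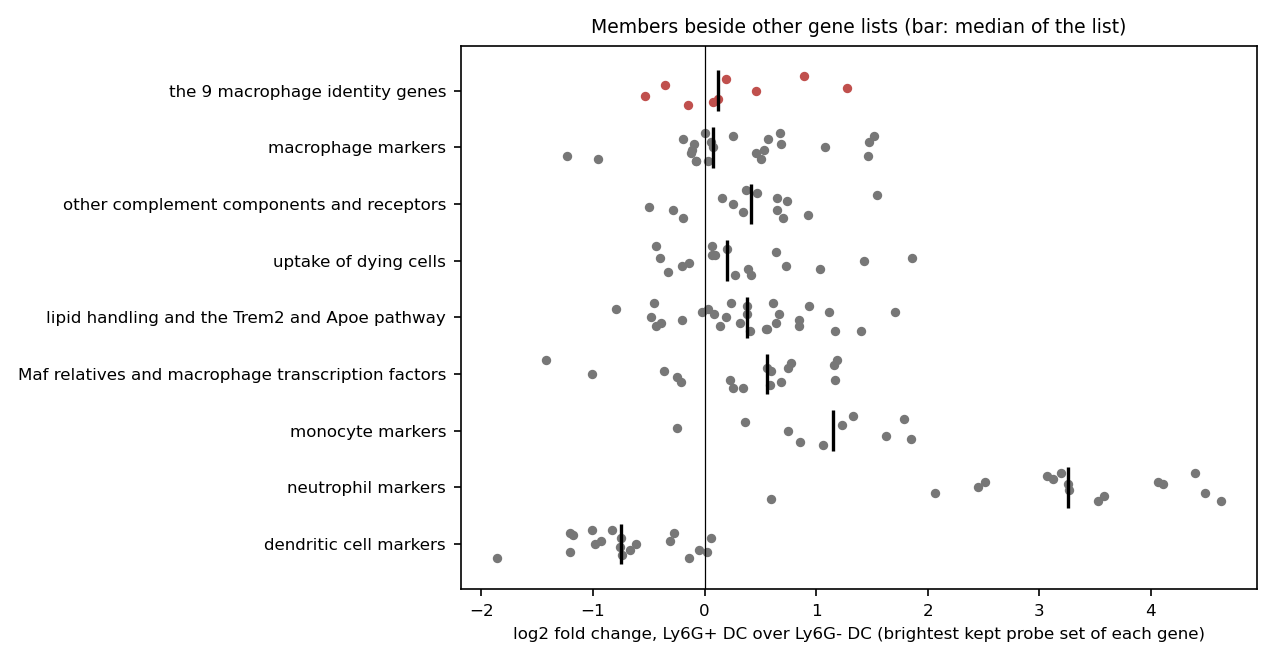
Log2 fold change (Ly6G+ over Ly6G- DC) of each gene's brightest tested probe set, for the 9 macrophage identity genes (red) and 8 other lists (grey), with a bar at each median. The members' median is 0.12, beside 3.26 for neutrophil (3.25 without the 3 that passed the filter on Ly6G+ arrays alone), 1.15 for monocyte and -0.75 for dendritic cell markers.

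The genes whose pattern was most like that of a member were sought among 6505 genes with an SD of at least 0.5 over the 6 arrays. Apmap, a membrane protein of adipocytes, had a Pearson's r of 0.999 with Apoe over the 6 arrays, Chchd5 0.998 with Trem2, Zc3h12d 0.990 with C1qa and Ccdc13 0.984 with C1qc. Gpnmb 1448303_at was most like Lgals3bp, a secreted galectin-binding glycoprotein, at 0.989, and Adgre1 was most like Sdf2l1, a protein of the endoplasmic reticulum, at 0.987. Mertk was most like Mib2 at 0.994, Maf 1456060_at like Cap1 at 0.983 and C1qb 1437726_x_at like Mynn at 0.994. Each is the highest of 6505 correlations over 6 arrays, in which the array differences are shared.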

How the data were processed

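The deposited table held linear signal intensities for 45101 probe sets on 6 arrays. MAS5, GCOS and Affymetrix Expression Console 2.0 made them, per the submitters' processing notes, and further settings are not given in the sources used here. All deposited intensity columns had a mean of 250.0 once 2% was trimmed from both tails, so the brightest probe sets of an array bear on its other values. Probe sets were named through the platform annotation, in which 34958 had 1 symbol, 932 several and 9211 none, and 64 were controls.

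Signals were analysed as log2(signal + 16), which understates the change of dim probe sets. Kept were 28254 probe sets whose signal passed the 40th percentile of its array on 3 or more arrays of any group. The sorted groups were tested by limma 3.58.1 (R 4.3.3, lmFit, eBayes with an intensity trend), with the group alone in the fit. P-values were adjusted by Benjamini-Hochberg over all kept probe sets, with a threshold of 0.05. The fit was also run on simulated data with 200 changed probe sets and independent noise. Those changes were larger than that of any member, so detection at the members' size was not tested. The members, lists and alternatives were chosen with earlier results of these data known. The rule for named genes took all members, up to 3 genes per other list with the smallest p and its 2 brightest, and the 3 genes most like each member; not all are printed, and Axl and Tyrobp were chosen after their values were seen. Where the dimmer group's mean lay under the mean 40th percentile, the fold is a bound, set against the higher of each array's value and its percentile. Arrays were split by hybridization controls at the widest gap. Alternatives were normalization, pseudocounts of 1 and 64, filters, blocks, 1 probe set per gene and each array left out. The number of arrays limits the precision.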

Additional observations from a re-analysis of the deposited data

How the results depend on the processing

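No member was called by group under any of the 16 alternatives. The members' median log2 fold change was 0.247, from 0.097 (no filter) to 0.553 (common median), and from -0.038 to 0.584 with an array left out. Of the 14 tested probe sets, 7 kept their sign under all alternatives that kept them, with sizes that moved when an array was left out. C1qc went from -0.863 to -0.228 (-0.205 with a common median), Apoe from 0.297 to 1.498 and Maf 1456060_at from 0.792 to 1.832. Trem2 1421792_s_at went from 0.14 to 0.915, Gpnmb 1439345_at from 0.302 to 1.173 and Adgre1 from 0.074 to 0.30. The dim Maf 1447849_s_at, the last of the 7, went from 0.216 to 1.424, and to 1.81 with a pseudocount of 1. These are fitted values, as its fold is given only as a bound. The values that turned were 0.183 (C1qa) and 0.256 (C1qb 1434366_x_at) with a common median, and 0.10 (C1qb 1437726_x_at) and 0.384 (1434366_x_at) with the hybridization control block. With each array left out in turn, C1qa ranged from -0.682 to 0.492, C1qb 1437726_x_at from -0.853 to 0.202, 1434366_x_at from -0.57 to 0.461 and 1417063_at from -0.221 to 0.766, Maf 1444073_at, too dim for these values to measure a fold, from -0.073 to 0.676, Mertk from -0.079 to 0.295 and Gpnmb 1448303_at from -0.15 to 0.345. The cause was not tested.

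Members at an unadjusted p under 0.05 numbered 0 with a pseudocount of 64 or the filter at the 60th percentile. The array title block gave 3 of 14, beside 2980 of all 28254 probe sets, and the hybridization control block 2, beside 1873 of 28254. With an array left out there were 0 to 3. The 3 came without Ly6G- DC 1, beside 3931 of 28254. Members without overlap numbered 1 with no filter (12.2% of all probe sets) and 0 to 4 with an array left out (15.5% to 34.2%). Over the whole table limma called 21 probe sets with the array title block and 0 to 24 with an array left out. At an unadjusted p under 0.05 there were 1589, and 2630 with no filter, 944 with the 60th percentile, 2980 with the array title block, 915 with 1 probe set per gene and 603 to 3931 with an array left out. Members called by array name numbered 7 with quantile normalization, 2 with a common median, 0 with the hybridization control block and 0 to 6 with an array left out.

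Deviations of same-numbered arrays correlated at 0.52, 0.26 and -0.04, which does not establish that the numbers pair the samples. The arrays numbered 1, each the best match of the other, also share the array name and low hybridization controls. With the replicate block limma called 19 probe sets, 0 of them members. At an unadjusted p under 0.05 there were 2954 of all 28254 probe sets, and 3 of 14 members: C1qc, Apoe and Maf 1456060_at.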

Other observations

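Relatives of other members were read as well, with 0 adjusted calls by limma. Of 6 adhesion G protein-coupled receptor genes related to Adgre1, 2 were higher in Ly6G+ DC at an unadjusted p under 0.05 (2.75% of all probe sets). Adgre4 gave 500, 510 and 1357 on the Ly6G+ arrays against 204, 360 and 31.4 on the Ly6G- arrays. Adgrg3 gave 295, 235 and 406 on the Ly6G+ arrays against 153, 96.6 and 104 on the Ly6G- arrays. The groups of Adgre4 and Adgrg3 did not overlap, beside 4.49% of all probe sets with Ly6G+ DC higher. Their log2 fold changes were 2.19 ± 0.69 and 1.28 ± 0.35 (SE). Of 14 osteoclast genes and Gpnmb relatives, 2 were higher at that level, the protease Ctsk with 1.19 ± 0.50 and the proton pump subunit Atp6v0d2 with 0.89 ± 0.39 (SE), both with overlap. The median was 0.08, or -0.01 without Itgb3, which passed the filter on Ly6G+ arrays alone. Of 8 stromal and fibroblast markers tested, 0 were at that level, and their summed signals were 463 to 945 on the Ly6G+ arrays against 813 to 1026 on the Ly6G- arrays. Among them Pdgfra passed the filter on Ly6G+ arrays alone, and the listed Dcn, Lum, Pdgfrb, Fbln2 and Mgp fell under the filter.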
